A study of Rattus norvegicus with 2 samples.

Results

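The genes described here are 9 that code for proteins of the neuronal growth cone, the motile tip of a growing axon. They are Gap43, Basp1, Marcks and Marcksl1, and the collapsin response mediator protein (CRMP) genes Crmp1, Dpysl2, Dpysl3, Dpysl4 and Dpysl5. A probe set, the group of short probes that measures a transcript on this kind of array, was taken if the platform annotation gave it exactly 1 symbol and that symbol was among the 9. This gave 16 probe sets for 9 genes, out of 15866 probe sets that are not controls and 10411 genes named by a probe set with a single symbol. Marcks had 6 probe sets, Gap43 and Basp1 had 2 each, and the other 6 genes had 1 each. RNA came from rat sympathetic neurons cultured without myocytes in 1 sample, called neurons alone, and from sympathetic neurons grown with their myocyte targets in the other, called neurons from co-culture. The sources used here do not give the strain, age, culture time or number of animals. Neurons were lifted off the dish with EDTA, which leaves the more adherent flat cells behind to an extent that the labels do not state. The co-culture sample is labelled inconsistently: its title names the myocyte target and its description names neurons grown alone. Here the title was followed.

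There was 1 array (Affymetrix Rat Expression Set 230A) per condition, so no value has a replicate check and no test was possible. Every difference compares these 2 arrays, not the conditions at large. Values are deposited intensities. Differences are log2 ratios, co-culture over alone, with intensities under 39.6 (the pooled 20th percentile of both arrays) set to that floor. A probe set was above the filter if it reached its array's median (185.7 in neurons alone, 175.0 in co-culture) on at least 1 array. In place of a replicate spread, the spread between probe sets of the same gene is given. This spread is technical and does not measure variation between cultures. Its SD for the log2 ratio of 1 probe set was 0.29 over 749 genes, from 0.36 in the dimmest of 4 signal groups to 0.21 in the brightest.

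Gap43, Basp1 and the MARCKS proteins are acidic, lipid-anchored proteins of the inner face of the plasma membrane. Each has a basic stretch that is regulated by protein kinase C or calmodulin, and through it they act on phosphoinositides and the actin cytoskeleton under the membrane. CRMPs are cytosolic proteins related to the enzyme dihydropyrimidinase but without its activity. They bind tubulin and relay signals of semaphorin 3A, and their phosphorylation by Cdk5 and Gsk3 loosens that binding when a growth cone collapses. Gap43 is a classic marker of growing and regenerating axons, and the study was about a program of growth inhibition that contact with a target sets off in these neurons.

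The set did not move as a block. Of the 12 member probe sets above the filter, 7 were lower and 5 higher in neurons from co-culture, and 54% of all 8308 probe sets above the filter were lower. Their median log2 ratio was -0.04, against -0.02 over all probe sets. Scaling the arrays to the same median adds 0.09 to the log2 ratio of every probe set above the floor, members and background alike, and a sign that changes under that scaling reflects this shift. At least 1.5-fold lower were 2 of the 12, 1 probe set for Dpysl3 and 1 of the 5 for Marcks, where 4.24% of all probe sets were. None of the 12 was at least 1.5-fold higher (1.91% of all), at least 2-fold lower (0.818%) or at least 2-fold higher (0.337%). With 1 value per gene, that of its brightest probe set, 8 genes were above the filter, of which 5 were lower and 3 higher, while 52.7% of all 6368 genes were lower. Only Dpysl3 among these 8 was at least 1.5-fold lower (3.3% of all genes) and none was at least 1.5-fold higher (1.93%), and none reached 2-fold in either direction (0.628% of all genes lower, 0.314% higher). In RNA from a cell population, fewer neurons and less of a transcript per neuron cannot be told apart.

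**Figure D1:**
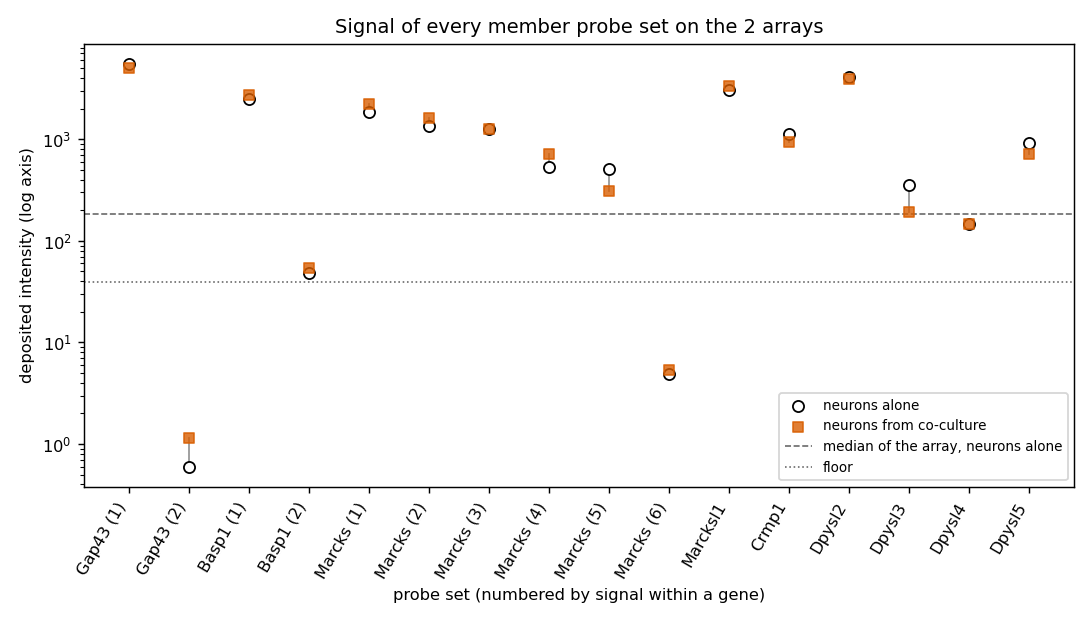
Deposited intensity (log axis) of the 16 member probe sets in neurons alone (open circles) and neurons from co-culture (squares), 1 array each, with the median of the neurons-alone array (185.7, dashed) and the floor (39.6, dotted). Within a gene, probe sets are numbered from the brightest. The largest drops are at Dpysl3 (352 to 193) and Marcks (5) (506 to 311), and the probe sets Gap43 (2) and Marcks (6) lie under the floor on both arrays.

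The upstream sequences of Marcks and Marcksl1, 2 membrane protein genes whose brightest probe set was higher in co-culture, are shown first. The Marcks probe sets disagreed in direction, and the Marcksl1 difference lay within the SD of 1 probe set. They are the 250 bases before the annotated gene start in RefSeq (GRCr8), written in the direction of transcription. Capitals mark GC boxes, GGGCGG on either strand, and CCAAT boxes, CCAAT on either strand.
Marcks, chr20:42245883-42246132, minus strand: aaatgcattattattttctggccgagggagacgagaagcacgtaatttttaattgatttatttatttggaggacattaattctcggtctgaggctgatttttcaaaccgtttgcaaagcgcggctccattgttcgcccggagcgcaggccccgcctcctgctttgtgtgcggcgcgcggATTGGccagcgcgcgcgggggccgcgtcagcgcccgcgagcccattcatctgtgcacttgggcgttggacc
Marcksl1, chr5:147135577-147135826, plus strand: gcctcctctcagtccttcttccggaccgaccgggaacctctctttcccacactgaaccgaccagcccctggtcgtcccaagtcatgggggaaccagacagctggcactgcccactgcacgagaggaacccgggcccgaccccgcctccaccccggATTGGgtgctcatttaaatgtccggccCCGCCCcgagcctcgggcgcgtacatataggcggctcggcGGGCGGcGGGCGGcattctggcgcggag
Marcks had no GC box and 1 CCAAT box in this window, and Marcksl1 had 3 GC boxes and 1 CCAAT box.

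Gap43, the growth-associated protein that protein kinase C phosphorylates and calmodulin binds, had an intensity of 5492 on the neurons-alone array and 5028 on the co-culture array. Its log2 ratio was -0.13, or 1.09-fold lower, which lies within the probe set SD (0.21). The sign was negative under all 12 alternative settings of the processing, from -0.26 to -0.04. A higher floor, no floor or a looser filter could not change this value. The other Gap43 probe set read 0.595 and 1.15, under the floor on both arrays, and gives no ratio. On the same arrays, 13 of 15 pan-neuronal markers and 11 of 12 sympathetic markers had a lower log2 ratio than Gap43.

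Basp1, a myristoylated protein of axon endings that shares its membrane and actin-related roles with Gap43, read 2503 without the target and 2757 with it. The log2 ratio of 0.14 (1.10-fold higher) was also within the spread of 1 probe set (SD 0.21). Its dimmer probe set, under the medians of both arrays, read 48.2 and 54.5, and its log2 ratio of 0.18 had the same sign. Marcksl1, a small relative of Marcks that is abundant in developing brain, read 3070 without the target and 3335 with it, a log2 ratio of 0.12 (1.09-fold higher) with an SD of 0.21. Both genes had a positive value under all 12 alternatives, from 0.08 to 0.23 for Basp1 and from 0.05 to 0.21 for Marcksl1. A higher floor, no floor or a looser filter could not change these values. Neither difference is larger than the spread between probe sets of a gene.

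Marcks, the main protein kinase C substrate that cross-links actin at the membrane, gave different answers on different probe sets. Marcks (1), the brightest, read 1846 without the target and 2202 with it, a log2 ratio of 0.25. Marcks (2) read 1354 and 1614, also 0.25. Both values were alike, and each difference was 1.20 times the SD of 1 probe set. Marcks (3) read 1264 and 1253, a log2 ratio of -0.01. Marcks (4) read 529 and 715, a log2 ratio of 0.44 and the highest of all member probe sets. Marcks (5) read 506 and 311, a log2 ratio of -0.70, or 1.62-fold lower, which is 2.38 times the SD at its signal (0.29). Marcks (6), at 4.89 and 5.36, was under the floor on both arrays.

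The 5 Marcks probe sets above the filter thus spanned 1.14 on the log2 scale, with 3 higher and 2 lower. The median range was 0.23 over the 749 genes with at least 2 probe sets above the filter, and 23 of these genes (3.07%) had a range at least as wide, Marcks included. A range grows with the number of probe sets, and of the 14 genes with at least 4 above the filter Marcks had the widest. Marcks (3), (4) and (5), which hold the lowest and the highest value, are tied to a single sequence record in the annotation. Of 162 pairs of a gene and a record with at least 2 such probe sets, 4 had a range at least as wide, and the median was 0.20. The mean over all 6 probe sets of Marcks, with the 1 under the floor at 0, was 0.04. The annotation used here does not say which part of the transcript each probe set reads, and splice forms or ends of the transcript were not tested.

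**Figure D2:**
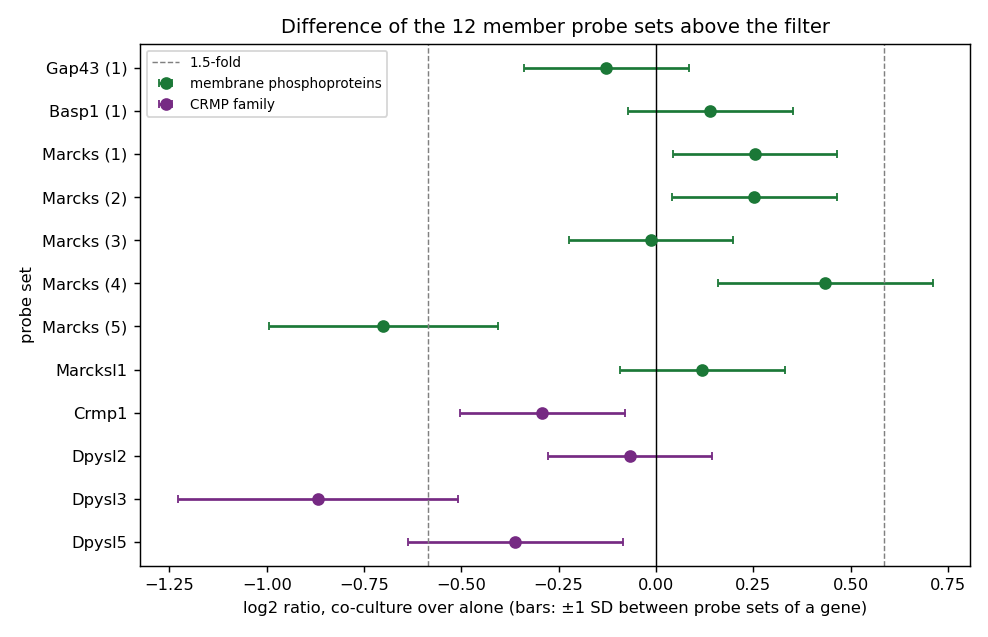
Log2 ratio of co-culture over alone for the 12 member probe sets above the filter, 1 value each, with bars of ±1 SD for a probe set of that signal (0.21 to 0.36, from the spread between probe sets of the same gene) and dashed lines at 1.5-fold. Dpysl3 at -0.87 and Marcks (5) at -0.70 lie beyond the 1.5-fold line, while the other Marcks probe sets run from -0.01 to 0.44.

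For the CRMP family the upstream sequences of Crmp1 and Dpysl5 are shown, 2 genes that were lower in co-culture, in the same window, build and marking as above.
Crmp1, chr14:77780917-77781166, minus strand: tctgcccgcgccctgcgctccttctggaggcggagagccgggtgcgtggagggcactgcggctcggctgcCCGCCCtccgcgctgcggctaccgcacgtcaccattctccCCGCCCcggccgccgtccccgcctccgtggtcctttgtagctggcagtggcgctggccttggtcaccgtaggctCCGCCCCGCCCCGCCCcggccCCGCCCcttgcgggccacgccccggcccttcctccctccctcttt
Dpysl5, chr6:31379349-31379598, minus strand: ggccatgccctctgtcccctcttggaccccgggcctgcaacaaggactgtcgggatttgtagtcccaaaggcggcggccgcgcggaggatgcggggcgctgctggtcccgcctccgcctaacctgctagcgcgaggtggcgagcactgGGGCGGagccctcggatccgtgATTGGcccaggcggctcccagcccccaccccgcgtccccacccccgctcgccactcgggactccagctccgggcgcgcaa
Crmp1 held 6 GC boxes, some of them overlapping, and no CCAAT box, and Dpysl5 held 1 of each. Promoter windows were found for 7 of the 9 genes, and Dpysl3 had 2 of them. Of these 8 windows, 7 had a GC box and 4 had at least 3, against 30.5% and 7.41% of the 33469 windows in the table. A CCAAT box was present in 3 of 8 (34.0% of all windows), an E-box (CANNTG) in 4 (65.5%) and a TATA box (TATAAA, either strand) in 0 (12.9%). GC content ran from 54.4% for Dpysl4 to 76.8% for Basp1, with a median of 51.2% over all windows. These counts describe letters in a window only, and GC boxes were found both in genes that were higher and in genes that were lower.

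Dpysl3 (also called CRMP4), a CRMP of newly growing axons that also binds actin, was the member with the largest difference. Its single probe set read 352 in neurons alone against 193 in co-culture, a log2 ratio of -0.87 or 1.83-fold lower. The difference was 2.41 times the SD of 1 probe set at this low signal (0.36), and 1.28% of all probe sets above the filter had a lower ratio. It kept its direction and stayed past 1.5-fold under all 12 alternatives, from -0.93 to -0.75. Only the settings that rescale the arrays and the pseudocount could change this value. The other floors and filters and the choice of probe sets left it as it was. The value rests on 1 probe set on 1 array per condition, and in co-culture it lay just above the array's median.

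Dpysl5 (CRMP5), a CRMP of developing neurons that restrains neurite outgrowth driven by Dpysl2, read 915 in neurons alone and 712 in co-culture. The log2 ratio was -0.36, or 1.28-fold lower (SD 0.28). Crmp1, a mediator of the semaphorin 3A response, read 1139 and 930, a log2 ratio of -0.29 or 1.22-fold lower (SD 0.21). Both lay slightly beyond 1 SD of a probe set and were lower under all 12 alternatives, with -0.43 to -0.28 for Dpysl5 and -0.36 to -0.21 for Crmp1. With 1 probe set each, only the settings that rescale the arrays and the pseudocount could change these values. Dpysl2 (CRMP2), the member known for binding tubulin dimers and promoting axon formation, read 4068 and 3884. Its log2 ratio of -0.07 (1.05-fold lower) was a fraction of the SD (0.21) and turned to 0.02 under median scaling. Dpysl4 (CRMP3) read 145.2 and 144.9, below the medians of both arrays, with a log2 ratio of -0.00 that was positive under 4 of the 12 alternatives. Dpys, the dihydropyrimidinase enzyme that gives the family its name, was at 9.20 and 3.71, under the floor on both arrays.

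Set side by side, the medians of the families lay on opposite sides of 0. By their brightest probe sets, the 4 membrane protein genes had log2 ratios from -0.13 to 0.25 with a median of 0.13, and 3 of them were higher. The 4 CRMP genes above the filter had ratios from -0.87 to -0.07 with a median of -0.33, and all 4 were lower except that Dpysl2 was higher under median scaling. Of all genes 52.7% were lower. Of 15 pan-neuronal markers 14 were lower, with a median of -0.44, so lower values were not particular to the CRMP genes. The medians differed by 0.46, and by 0.39 to 0.46 over 12 alternatives, but they rest on 4 genes each and the difference was not tested. Scaling an array by a constant shifts both medians alike and could not change their difference. A higher floor, no floor and dropping probe sets by the ending of their name also left it at 0.46. This contrast was formed after the values were seen. In the order of the gene values (Dpysl3, Dpysl5, Crmp1, Gap43, Dpysl2, Marcksl1, Basp1, Marcks), the gap between neighbours exceeded their combined SD in 1 of 7 pairs, Dpysl3 and Dpysl5 (0.51 against 0.45). The ends of the order, Marcks and Dpysl3, were 1.12 apart (combined SD 0.42).

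**Figure D3:**
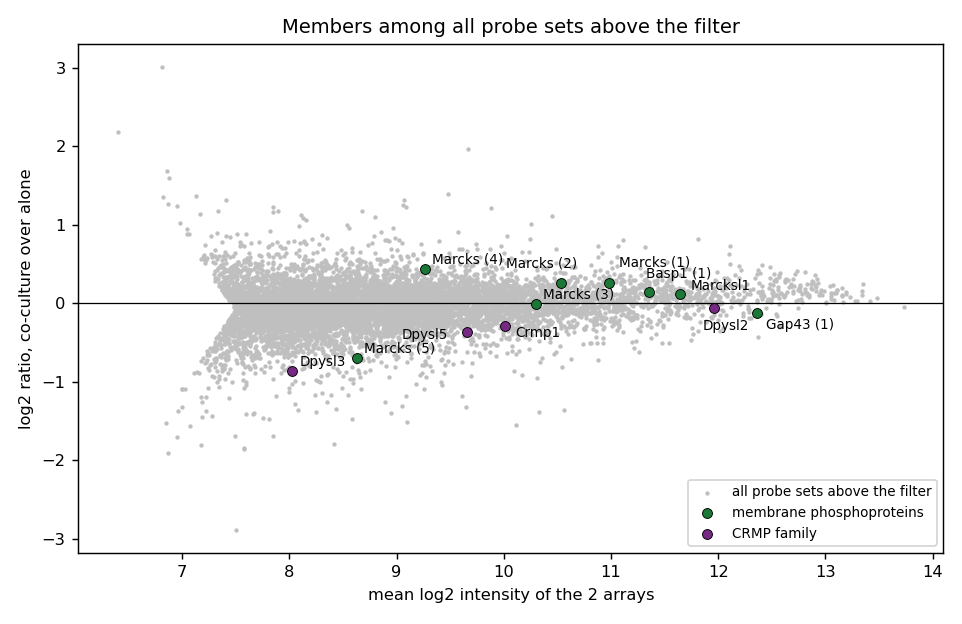
Log2 ratio of co-culture over alone against the mean log2 intensity of both arrays, for the 8308 probe sets above the filter (grey) and the 12 members among them (coloured by family). Dpysl3 and Marcks (5) lie at the lower edge of the cloud, Marcks (4) at 0.44 lies toward the upper edge, and the other members lie between -0.36 and 0.25.

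Genes that act on these proteins were read from lists, in which measured genes are those above the filter. In the list of calmodulin, protein kinase C, calcineurin and the enzymes that modify membrane proteins, 11 of 14 genes on the array were above the filter, 7 lower and 4 higher, with a median of -0.26 against -0.01 over all genes and none at 1.5-fold. The lowest were Prkca, a protein kinase C isoform (197 in neurons alone, 142 in co-culture, log2 ratio -0.47), and Ppp3r1, the regulatory subunit of calcineurin (1612 and 1182, -0.45). The highest were Prkcb, another protein kinase C isoform (184 and 235, 0.35), and Csnk2a1, a casein kinase 2 subunit (681 and 809, 0.25). The 3 measured catalytic and regulatory calcineurin subunits, picked after their values were seen, were all lower, from -0.45 to -0.26. Of all genes 52.7% were lower, and the pan-neuronal median was -0.44.

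Of 23 measured CRMP kinases, phosphatases and binding partners, 14 were lower and 9 higher, where 52.7% of all genes were lower. The median was -0.09 against -0.01 over all genes. At least 1.5-fold lower were 2 genes, where 3.3% of all genes and 4 of 15 pan-neuronal markers were. Gsk3a, a kinase that phosphorylates CRMPs, read 478 in neurons alone and 260 in co-culture (log2 ratio -0.88), and Kif5a, a neuronal kinesin heavy chain, read 919 and 533 (-0.78). Highest were Cdc42, a GTPase of filopodia (3828 and 4470, 0.22), and Capn2, a calpain protease (1360 and 1563, 0.20). The related kinase Gsk3b was at -0.19 and Cdk5 at -0.29, both picked after their values were seen.

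Of 9 genes of the semaphorin 3A receptor complex on the array, the 6 above the filter were all lower, with a median of -0.20. Of these 1 was at least 1.5-fold lower, where 52.7% of all genes were lower and 3.3% at least 1.5-fold lower. Nrp2 was below the filter, and Sema3a and Plxna2 were under the floor on both arrays and give no ratio. Pan-neuronal markers were lower too, with 14 of 15 and a median of -0.44. Plxna3, a plexin that carries the semaphorin signal across the membrane, read 598 and 392 (log2 ratio -0.61), and the adhesion molecule Nrcam read 189 and 162 (-0.22). The smallest differences were those of the plexin Plxna1 (398 and 367, -0.12) and of the neuropilin Nrp1, which binds semaphorin 3A (1604 and 1443, -0.15). The median was between -0.26 and -0.11 under the alternatives.

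Actin proteins of the growth cone lay near 0. Of 25 measured genes 15 were higher and 10 lower, with a median of 0.05 that was -0.02 under scaling to the spiked controls, which shifts all ratios by -0.06, and -0.00 after lowess correction, and none reached 1.5-fold. The highest were the capping protein Capzb (2687 and 3312, log2 ratio 0.30) and Coro1b, a coronin (730 and 897, 0.30). The lowest were Pfn2, the profilin of neurons (2057 and 1705, -0.27), and Abi2, a subunit of the WAVE complex (754 and 628, -0.26). Of 17 other growth-associated neuronal genes 8 were lower and 9 higher, with a median of 0.03 that was negative under 5 of 12 alternatives. Gal (galanin, 635 and 402, log2 ratio -0.66) and the adhesion molecule Ncam1 (348 and 238, -0.55) were lowest, and the injury-induced factor Atf3 (161 and 276, 0.78) and the stathmin Stmn4 (638 and 835, 0.39) were highest.

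**Figure D4:**
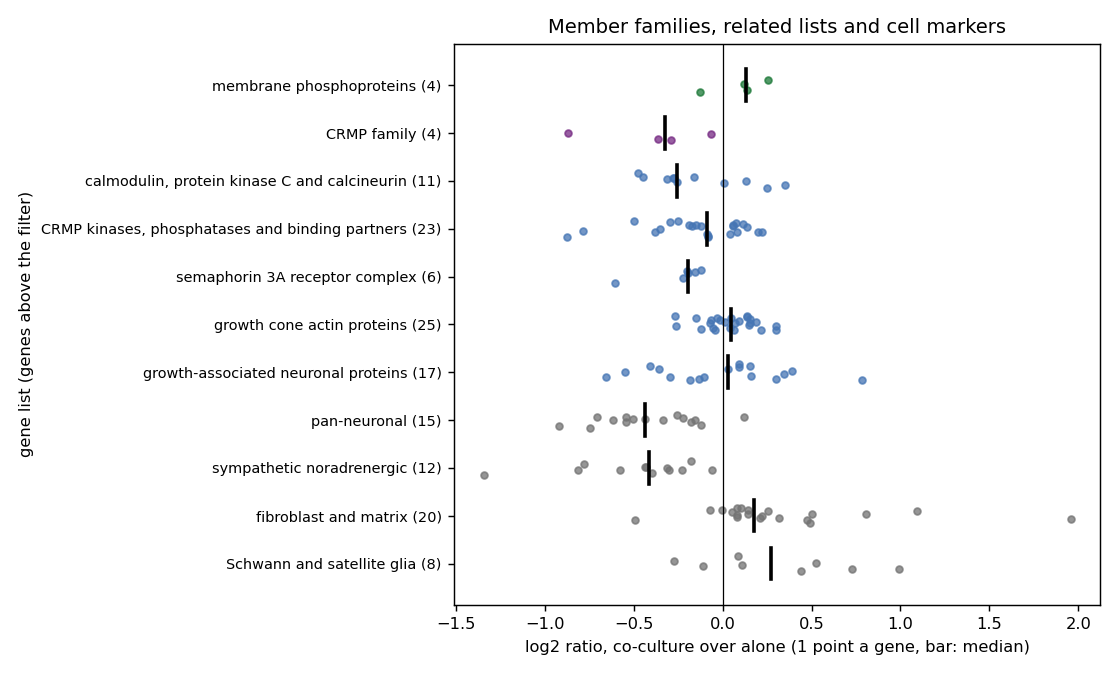
Log2 ratio of co-culture over alone for every gene above the filter (1 point a gene, bar at the median) in both member families (green and purple), 5 related lists (blue) and 4 lists of cell markers (grey), with the number of genes in parentheses. The CRMP median is -0.33 and the pan-neuronal median -0.44. Above 0 are the medians of the membrane proteins (0.13), the actin and growth-associated lists, the fibroblast and matrix genes (0.18) and the glia genes (0.27). Each member family holds 4 genes, and the part of cell types in these values was not tested.

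Markers of several cell types were present in both arrays. Neuronal ones were lower in co-culture: 14 of 15 pan-neuronal genes (median -0.44, brightest Prph -0.12, Rtn1 -0.15 and Uchl1 -0.18) and 12 of 12 sympathetic genes (median -0.42, brightest Npy -0.30, Th -0.43 and Dbh -0.44). Summed over all 16 pan-neuronal and all 12 sympathetic genes on the array, intensities were 30884 and 21512 in neurons alone, against 24400 and 16161 in co-culture. Of 20 fibroblast and matrix genes 17 were higher (median 0.18; Col1a1 0.11, Col1a2 0.08 and Vim 0.05), 3 of them at least 1.5-fold (Mgp 1.96, Dcn 1.09 and Lum 0.80, named after their values were seen). The summed intensity of all 21 genes of this list on the array was 63564 in neurons alone and 71928 in co-culture. Of 8 measured Schwann and satellite glia genes 6 were higher (median 0.27; Pmp22 -0.11, Cnp 0.44 and Sox10 0.09). The sums over all 11 on the array were 6068 and 6597. The smooth muscle list (7 of 10 lower) had a median of -0.21 (Tagln -0.23, Acta2 -0.47 and Tpm2 0.39), the macrophage list (6 of 8 lower) -0.24 (Fcer1g -0.79, Lyz2 -0.22 and Cd14 0.18) and the cell cycle list (4 of 12 lower) 0.04 (Pcna 0.07, Cdk1 0.06 and Ccnb1 0.04). Of 16 cardiac genes 6 were above the filter, 3 lower and 3 higher, with a median of 0.08. The brightest were Atp2a2 (-0.13), Tnnt2 (0.48) and Pln (-0.02). Of these 6 genes 1, Nppb, was at least 1.5-fold higher and 0 were at least 1.5-fold lower. Nppb read 180 in neurons alone and 309 in co-culture (0.78), and it is listed because of this difference. Nppa, the atrial peptide used by the study to check for myocytes, read 178 and 201. Of 8 endothelial genes, led by Esam, Flt1 and Cldn5, 0 were above the filter. Marcks, Marcksl1, Basp1, Dpysl2 and Dpysl3 are also expressed by cells other than neurons, and Gap43 by Schwann cells. The part of these other cells in the members' values was not tested.

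The members are set against these markers by rank. Only 1 of 7 neighbouring pairs of members was further apart than its combined SD, so most ranks do not separate the members. Dpysl3 had a lower ratio than 14 of 15 pan-neuronal and 11 of 12 sympathetic genes. Dpysl5 had a higher ratio than 8 of 15 pan-neuronal genes and Crmp1 than 9 of 15, which puts both near the middle of that list. Dpysl2 was above 14 of the 15, as Marcksl1 was, and Basp1 was above all 15. Among the 20 fibroblast and matrix genes, 8 had a lower ratio than Basp1 and than Marcksl1. The place of Marcks depended on the probe set. Its brightest one was above all 15 pan-neuronal and 13 of 20 fibroblast and matrix genes, Marcks (3) above 14 and 2, and Marcks (5) above 3 and 0.

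**Figure D5:**
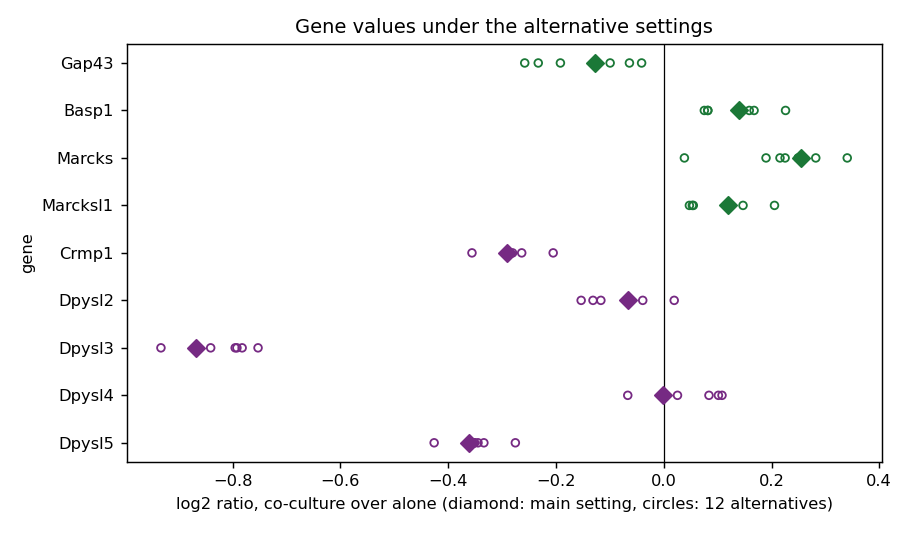
Log2 ratio of co-culture over alone for each of the 9 genes, with the value as reported (diamond) and under 12 alternative settings (circles). Dpysl3 stays between -0.93 and -0.75, Marcks runs from 0.04 to 0.34, and Dpysl2 and Dpysl4 have values on both sides of 0.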

How the data were processed

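The values are the deposited intensities of 2 arrays, 1 per probe set and array, on a linear scale. Per the series' design text, dChip 1.3 quantified the arrays. The tool MAS5 also stands in the submitters' processing notes. The sources used here do not say which of them produced the numbers, nor how scaling and background were handled. Detection calls were not used here.

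No further normalization was applied. Of 15923 probe sets, 57 controls were left out, and 12783 of the rest had 1 symbol, 312 several and 2771 none. Symbols were updated by gene identifier for 12748 probe sets to the GRCr8 RefSeq table, used for names and promoter windows. The spread between probe sets is the SD of the difference of a gene's 2 brightest ones over the square root of 2, in 4 groups by signal. The number of arrays limits the precision. No replicate exists, so no test was run.

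Members and gene lists were chosen with earlier results of these data known. All 9 members are named, with the 2 highest and 2 lowest genes of each related list and the 3 brightest of each marker list by the mean of both arrays. Scaling, floor, filter and probe set choice were varied in 12 alternatives. The calculation was tested on simulated data (Python 3.11.15, numpy 2.4.6, pandas 2.3.3, statsmodels 0.14.6).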

Additional observations from a re-analysis of the deposited data

How the results depend on the processing

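The count of member probe sets at least 1.5-fold lower was 2 under the 11 alternatives that count probe sets. A higher floor, no floor, looser filters and dropping probe sets by the ending of their name left both of these ratios as they were. Those settings are therefore no check on the 2 probe sets. The median of the member genes stayed negative over 12 alternatives, from -0.19 to -0.01. Of 108 gene values under 12 alternatives, 107 stayed within the SD of 1 probe set of the reported value. The exception was the mean over the probe sets of Marcks (0.04). Many of the 108 could not move, since other floors and filters leave the ratio of a probe set well above the floor as it is. The sign changed in 5 of the 108, for Dpysl2 and Dpysl4. Among the related lists, the growth-associated neuronal genes moved from 0.03 to -0.07 after quantile normalization (-0.0687), to -0.07 after lowess correction (-0.0745), and to -0.10 both with probe sets averaged per gene and without probe sets ending in _s_at, _x_at or _a_at. Under median scaling the CRMP kinases and partners moved from -0.09 to 0.0009 and the actin proteins from 0.05 to 0.13. Both of these moves equal the 0.09 that this scaling adds to every gene above the floor. The cause of the moves under the other settings was not tested. No replicate could be left out and no pairing tried with 1 array per condition, and signal near background limits Dpysl4 and the dim probe sets of Gap43, Basp1 and Marcks.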
